A study of Mus musculus with 8 samples.

Results

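Nuclear receptors are transcription factors that most often answer to a small fat-soluble ligand, and 31 mouse genes of this superfamily were followed through megakaryocytes grown in liquid or in hydrogel. The members were the rows of the gene count table whose Ensembl identifier maps to the listed retinoid, LXR, PPAR, steroid, thyroid hormone and orphan receptor symbols, and 29 of the 31 had such a row among the 27679 genes of the table. Ppara and Nr5a2 were not analysed here. The table lists only genes with at least 1 read.

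PolyA RNA was read from mouse megakaryocytes, which grow large and polyploid in the marrow and release platelets. Lineage-negative progenitors of wild-type C57BL/6 mice spent 3 days in a liquid culture or in a soft gel (methylcellulose at 2%, stiffness 30 to 60 Pa). A BSA gradient then enriched the larger, mature cells in both arms. The groups were 4 liquid and 4 hydrogel libraries from separate cultures, with 27012172 to 49281611 counts each, and the labels name no other agent or allele for either. By its title the study asked how mechanical confinement bears on platelet release. In bulk RNA, fewer cells of a type and less RNA per cell cannot be told apart.

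All 15 megakaryocyte markers stood above 1 CPM (the usual read count relative to library size, with TMM factors applied) in both cultures, and their summed level ran from 32504 to 53025 CPM in liquid and from 26421 to 38523 CPM in hydrogel. Markers of some other cell types moved with the cultures. Of the megakaryocyte markers, 11 of 15 passed downward. The 18 monocyte and macrophage markers, all with reads in both cultures, summed to 1005 to 1239 CPM in liquid 1, 3 and 4 and 2126 CPM in liquid 2. In hydrogel they summed to 3618 CPM in hydrogel 1 and 6484 to 7550 CPM in hydrogel 2, 3 and 4, and 13 of the 18 passed upward. Lyz2 alone made up most of the sum in every library, at 675 to 1225 CPM in liquid and 2175 to 4354 CPM in hydrogel. Of 7 tested dendritic cell markers 5 passed downward and 1 upward (summed level 48.3 to 103 CPM in liquid and 47.6 to 87.6 CPM in hydrogel). Of 7 tested mast cell and basophil markers 6 passed downward (95.5 to 516 CPM and 54.3 to 164 CPM). DESeq2 also called 6 of them lower, but limma-voom only 1. Of 12 tested neutrophil markers 2 passed upward and 1 downward (427 to 1859 CPM in liquid and 439 to 1019 CPM in hydrogel). That is 25%, near the 29.3% of all tested genes. Of 5 tested erythroid markers 2 passed downward, and the 1 tested lymphocyte marker did not pass. The stromal and endothelial markers summed to 103 to 135 CPM in liquid and 41.9 to 61.6 CPM in hydrogel. Among the 4 tested, Kdr, which made up most of that sum, passed downward and Cdh5 passed upward. On the macrophage markers, liquid 2 and hydrogel 1 lay between the other libraries. The part of these markers in the receptor results was not tested.

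Most nuclear receptors share a zinc finger domain that reads short DNA elements and a ligand-binding domain that swaps corepressors for coactivators when the ligand arrives. Steroid receptors such as those for glucocorticoids, estrogen and progesterone usually bind DNA as pairs of like molecules. The receptors for retinoic acid (RAR), oxysterols (LXR), fatty acids (PPAR), thyroid hormone and vitamin D pair with a retinoid X receptor (RXR), whose supply they share. In blood formation retinoid receptors are known for steering myeloid maturation, and LXR and PPAR gamma for lipid handling in macrophages.

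Of the 29 members, 23 were expressed, meaning a mean of at least 1 CPM in either culture. Of these, 17 reached 10 CPM in either culture, and 24 members had enough counts to be tested. Rarg, Nr1h2 and Ppard had the highest levels per length in liquid, at 28.4, 22.5 and 15.3 CPM per kilobase of exon, followed by Rxrb at 9.10. Per length in hydrogel the same 3 genes led, Nr1h2 at 22.1, Rarg at 21.5 and Ppard at 21.3 CPM per kilobase. Rarb was tested but stayed under 1 CPM, and 5 members (Nr3c2, Esr2, Nr2f1, Nr2f2 and Rorb) had too few reads to test.

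**Figure D1:**
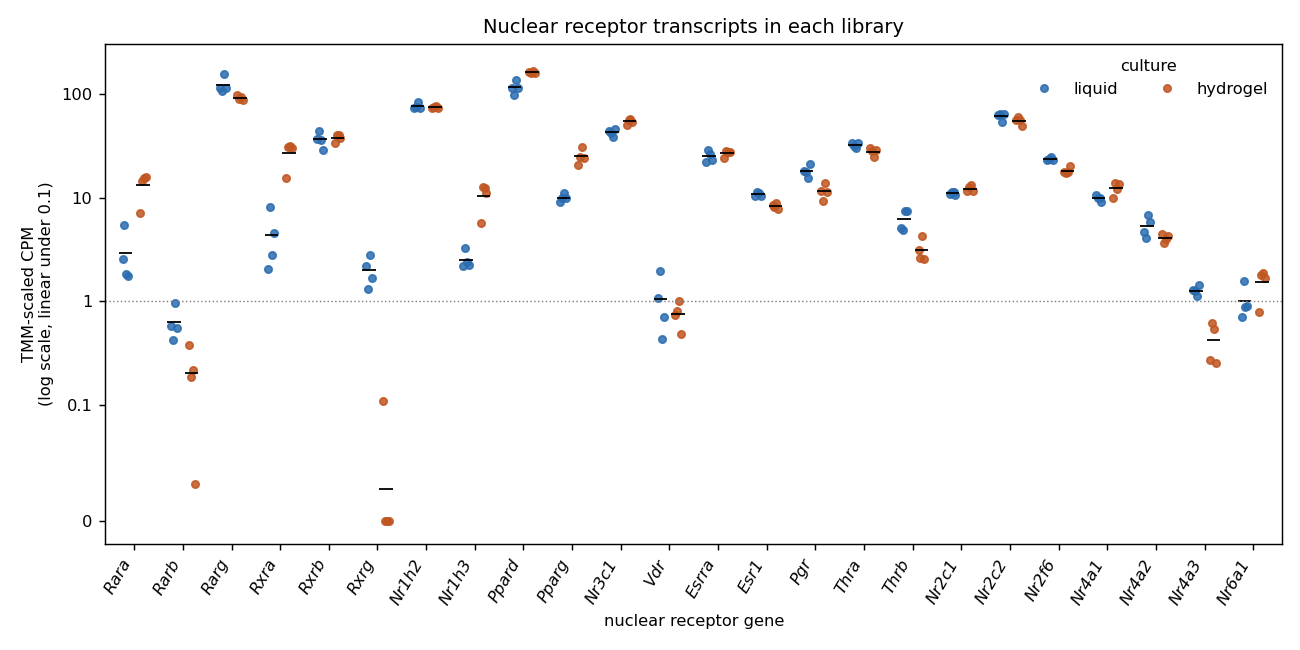
TMM-scaled CPM (vertical axis, logarithmic above 0.1 and linear below it) of the 24 tested nuclear receptor genes, a point for each of the 4 liquid and 4 hydrogel libraries, with the mean as a bar and a dotted line at 1 CPM. Rarg, Ppard and Nr1h2 lie near 100 CPM in both cultures, Rxra, Rara, Nr1h3 and Pparg lie higher in hydrogel, and Rxrg is at 0 in 3 hydrogel libraries.

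In hydrogel, Rxra, Rara, Nr1h3, Pparg, Ppard and Nr3c1 rose, and Rxrg, Rarb, Nr4a3, Thrb, Pgr, Rarg, Esr1 and Nr2f6 fell. These 6 higher and 8 lower members are 58.3% of the 24 tested, where the background was 29.3% of all 13845 tested genes (15.1% higher and 14.1% lower). A gene was called when its p from edgeR's quasi-likelihood test, adjusted by the Benjamini-Hochberg method, was under 0.05. Some members, Rxrg above all, had enough reads to be tested through liquid alone, so the share describes the tested members only. The median log2 change was −0.08 over the tested members and −0.01 over all genes, and the median size of the change was 0.42 and 0.24. Leaving out hydrogel 2 or hydrogel 4 left 5 lower members. Changes of at least 2-fold were seen in 7 called members, 4 higher and 3 lower. The hydrogel and liquid libraries did not overlap for 16 members, the 14 called ones with Nr2c1 and Thra, where 28.4% of all genes were without overlap.

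**Figure D2:**
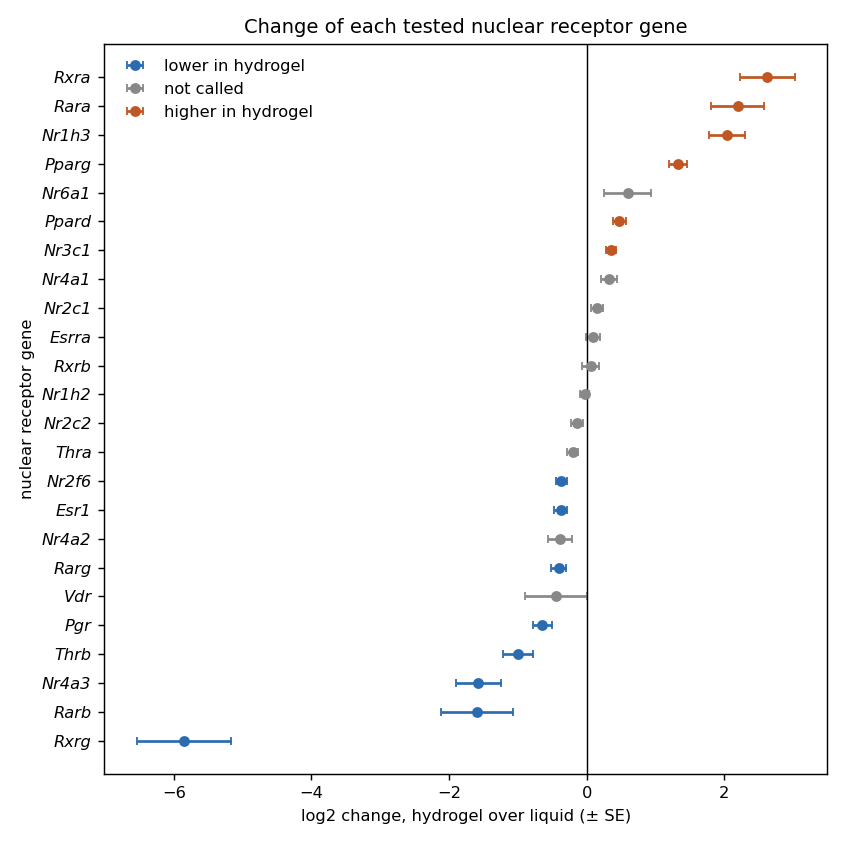
Log2 change from liquid to hydrogel with its standard error for each of the 24 tested nuclear receptor genes, coloured by whether edgeR's adjusted p was under 0.05. Rxra leads the 6 higher genes at 2.63 and Rxrg the 8 lower ones at −5.86, and 10 genes were not called.

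The RXR genes changed most in both directions. Rxra encodes RXR alpha, the usual partner in myeloid cells, and stood at 2.05, 8.15, 2.79 and 4.52 CPM in liquid 1 to 4 and 15.4, 30.4, 31.4 and 30.3 CPM in hydrogel 1 to 4. Every hydrogel library lay above every liquid one, with liquid 2 the highest of the liquid and hydrogel 1 the lowest of the hydrogel libraries. The rise was 6.17-fold (log2 change 2.63 ± 0.40 SE, edgeR adjusted p = 0.00124), and 3.30 on the log2 scale without hydrogel 1 and liquid 2. Both lay nearest to the other culture on Rxra and the macrophage markers. That choice favours a larger change without them, here and below. Rxrg, the isotype better known from muscle and brain, stood at 2.21, 1.31, 2.82 and 1.67 CPM in liquid. In hydrogel it had 4 reads in hydrogel 1 (0.110 CPM) and 0 in the other 3, which allows up to 0.0937 to 0.109 CPM in each. Pooled over libraries, its read rate was 65.7 times higher in liquid (95% exact interval 25.4 to 243, counting error only; edgeR adjusted p = 0.000456), and the fitted log2 change of −5.86 moved to −9.08 once hydrogel 1, the source of all its gel reads, was left out.

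Rxrb, the widely expressed isotype, stood at 36.6, 43.8, 35.6 and 28.7 CPM in liquid and 33.4, 40.1, 39.8 and 37.2 CPM in hydrogel. The ranges overlapped and the log2 change was 0.06 ± 0.12 SE (adjusted p = 0.760, edgeR). The make-up of the RXR transcripts therefore differed, counted per kilobase of exon. Rxra took 7.30% ± 3.73 of them in liquid and 33.6% ± 5.73 in hydrogel (SD, n = 4 each), while Rxrb took 84.4% ± 2.10 and 66.3% ± 5.52. Rxrg took 8.31% ± 2.95 in liquid and 0.106% ± 0.211 in hydrogel. Across the 8 libraries the share of Rxra ran from 3.57% to 11.4% in liquid and from 25.0% in hydrogel 1 to 37.2%, with no overlap.

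Among the retinoic acid receptors proper, Rara rose and Rarg and Rarb fell. Rara, the isotype known for its part in granulocyte maturation, stood at 2.57, 5.42, 1.85 and 1.77 CPM in liquid and 7.12, 14.4, 15.5 and 15.6 CPM in hydrogel. As for Rxra, liquid 2 was the highest liquid and hydrogel 1 the lowest hydrogel library. The rise was 4.58-fold (log2 change 2.19 ± 0.38 SE, adjusted p = 0.00243), and 2.91 on the log2 scale without those 2 libraries. Rarg, the isotype known from stem cells and skin, was the most abundant receptor per length in liquid. It stood at 112, 107, 153 and 113 CPM in liquid and 97.7, 88.0, 93.2 and 87.2 CPM in hydrogel, and liquid 3 stood apart. The fall was 1.32-fold (log2 change −0.41 ± 0.11 SE, adjusted p = 0.0212), and the call was lost without hydrogel 2, hydrogel 3 or hydrogel 4 (adjusted p of 0.0508 to 0.0646). Its share of RAR transcripts per kilobase was 97.2% ± 1.54 in liquid and 87.5% ± 3.72 in hydrogel, and that of Rara 2.39% ± 1.61 and 12.3% ± 3.82 (SD, n = 4 each).

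**Figure D3:**
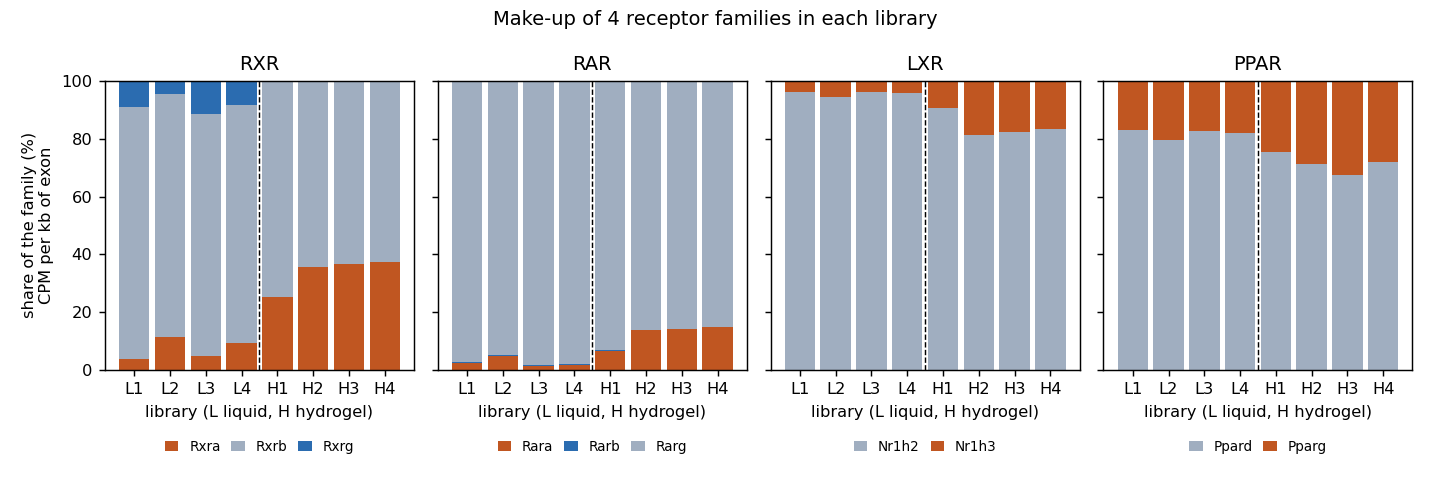
Share of each gene in the summed CPM per kilobase of exon of its family (vertical axis, percent) in liquid 1 to 4 (L) and hydrogel 1 to 4 (H), for RXR, RAR, LXR and PPAR, where Ppara is not included. Rxra, Rara, Nr1h3 and Pparg take larger shares in the 4 hydrogel libraries than in the 4 liquid ones, without overlap, and hydrogel 1 has the smallest of these hydrogel shares.

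Rarb is itself a classical target of retinoic acid, which acts on a response element just before its start. Its reads were few, 96 over the liquid and 27 over the hydrogel libraries, or 0.578, 0.427, 0.968 and 0.555 CPM in liquid and 0.383, 0.187, 0.219 and 0.0324 CPM in hydrogel. All hydrogel values lay below all liquid values. The log2 change was −1.59 ± 0.52 SE (edgeR adjusted p = 0.0425), a call lost when any library other than liquid 2 or hydrogel 1 was left out (up to 0.118 without liquid 3). Its annotated exons share 1793 of 5265 bases with Top2b on the opposite strand, which stood at 216 ± 12.7 CPM in liquid and 220 ± 11.7 CPM in hydrogel; without the strand setting of the counting, reads of the pair cannot be told apart.

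Promoter sequences of RefSeq (GRCm38.p6, another build than the counts) were searched in the 250 bases before each annotated start, on both strands, for elements that nuclear receptors read. The 27 matched members had 42 such windows. The core hexamers counted in repeats were AGGTCA with its variant AGTTCA, and also GGGTCA with its variant GGTTCA. A direct repeat of such hexamers spaced by 5 bases, the DR5 element of RAR with RXR, occurred in 29 of all 32851 windows (0.0883%) and in 1 window of the members, that of Rarb. Repeats spaced by 1 to 4 bases occurred in 0 member windows and in 0.0396% to 0.174% of all windows. The hexamer AGGTCA occurred in 7 of the 42 member windows (14% of all windows), and AAAGGTCA, the form that NR4A proteins bind as monomers and which contains the hexamer, in those of Rxra and Rxrg (1.34% of all windows). The counts are per gene and do not say which start was used, and a match is a description of letters only. Shown are the Rarb window for its DR5, and those of Rxrg, Rxra and Pparg as the members with large changes whose windows hold the hexamer, each written along the gene's strand up to the base before the start, with matches in capitals.
Rarb, chr14:16575477-16575726, minus strand: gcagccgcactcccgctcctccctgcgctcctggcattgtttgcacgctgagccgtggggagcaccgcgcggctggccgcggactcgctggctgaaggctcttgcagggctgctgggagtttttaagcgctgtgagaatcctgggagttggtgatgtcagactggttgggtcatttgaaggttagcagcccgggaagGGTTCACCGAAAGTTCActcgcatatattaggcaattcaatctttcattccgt
Rxrg, chr1:167618015-167618264, plus strand: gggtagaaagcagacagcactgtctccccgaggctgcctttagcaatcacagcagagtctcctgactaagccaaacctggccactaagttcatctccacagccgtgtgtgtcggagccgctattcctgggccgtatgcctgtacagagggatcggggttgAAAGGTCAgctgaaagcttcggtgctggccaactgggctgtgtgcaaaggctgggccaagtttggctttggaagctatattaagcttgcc
Rxra, chr2:27709042-27709291, plus strand: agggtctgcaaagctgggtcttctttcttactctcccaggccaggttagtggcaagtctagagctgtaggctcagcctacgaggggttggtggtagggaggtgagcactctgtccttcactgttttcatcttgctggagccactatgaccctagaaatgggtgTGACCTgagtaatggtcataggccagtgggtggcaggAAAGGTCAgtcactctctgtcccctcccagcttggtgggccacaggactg
Pparg, chr6:115360894-115361143, plus strand: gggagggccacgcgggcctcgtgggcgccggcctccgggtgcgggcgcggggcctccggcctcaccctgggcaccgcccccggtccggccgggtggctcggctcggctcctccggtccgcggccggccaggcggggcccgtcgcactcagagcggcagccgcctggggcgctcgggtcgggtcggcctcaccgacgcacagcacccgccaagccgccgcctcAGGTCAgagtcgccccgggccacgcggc
The DR5 of Rarb, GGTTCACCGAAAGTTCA, spans bases 53 to 37 before the start. The windows of Rxra and Rxrg both hold AAAGGTCA although Rxra rose and Rxrg fell.

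Of the 18 listed genes of retinoid handling and RAR targets, 10 were tested, 3 fell and 1 rose. Those that fell included Cyp26a1, which degrades retinoic acid (1.73 ± 0.784 to 0.432 ± 0.127 CPM), and Dhrs3, which returns retinal to retinol (344 ± 44.3 to 239 ± 26.8 CPM; SD, n = 4 each). Their adjusted p in edgeR's test were 0.00370 and 0.00650, and no hydrogel value of the pair reached the liquid range. Dhrs9, a retinol dehydrogenase, rose from 0.533 ± 0.251 to 2.86 ± 1.08 CPM (adjusted p = 0.00199). The list's median log2 change was −0.18, against −0.01 for all genes. Cyp26a1 and Dhrs3 are known as genes that retinoic acid induces, as is Rarb; they were put side by side after their values were seen.

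Of the LXR genes, which encode receptors for oxysterols, Nr1h3 (LXR alpha) rose and Nr1h2 (LXR beta) was not called. Nr1h3 stood at 2.18, 3.29, 2.38 and 2.25 CPM in liquid and 5.67, 12.7, 12.3 and 11 CPM in hydrogel, so that hydrogel 1 again lay nearest to liquid and liquid 2 nearest to hydrogel. The rise was 4.13-fold (log2 change 2.05 ± 0.26 SE, adjusted p = 0.000642, edgeR), with a log2 change of 2.42 without hydrogel 1 and liquid 2. Nr1h2 was among the most even members, with 72.0 to 83.4 CPM in liquid and 72.6 to 75.9 CPM in hydrogel (log2 change −0.03 ± 0.06 SE). Per kilobase, Nr1h3 made up 4.28% ± 0.902 of LXR transcripts in liquid and 15.6% ± 4.20 in hydrogel (SD, n = 4 each).

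Of 15 tested LXR targets, 8 rose and 0 fell in edgeR's test (1 had an unadjusted p under 0.05 downward; DESeq2 called 1 lower and limma-voom 0). Their median log2 change was 1.12. The sterol exporter Abca1 rose 3.70-fold and the lipid transfer protein Pltp 6.72-fold. Abcg1, which loads sterol onto lipoproteins, rose from 17.0 ± 9.04 to 118 ± 30.1 CPM, and Mertk, a receptor for dead cell uptake, from 2.60 ± 2.03 to 20.3 ± 6.92 CPM (edgeR adjusted p of these 4 from 0.000113 to 0.00179). Mylip, which marks the LDL receptor for decay, and Fasn, of fatty acid synthesis, were LXR targets with log2 changes of −0.20 and −0.26 that did not pass (adjusted p = 0.493 and 0.0536); they were singled out after their values were seen. Macrophages express many of these targets, and their markers were higher in hydrogel as given above. The part of macrophages in the rise of these targets was not tested.

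Both PPAR genes that could be read rose. Pparg, the fat cell and macrophage isotype, stood at 9.02, 9.86, 11.1 and 9.86 CPM in liquid and 20.6, 24.8, 30.8 and 23.8 CPM in hydrogel. Its liquid libraries were close together, with liquid 2 equal to liquid 4, unlike those of Rxra, Rara and Nr1h3. Hydrogel 1 was the lowest hydrogel library, as for those genes. The rise was 2.51-fold, with the smallest adjusted p of the members (log2 change 1.33 ± 0.13 SE, adjusted p = 0.000230). Ppard, the widely expressed isotype, stood at 113, 97.6, 135 and 113 CPM in liquid and 162, 157, 163 and 157 CPM in hydrogel. The rise was 1.39-fold (log2 change 0.48 ± 0.09 SE, adjusted p = 0.00393), and hydrogel 1 was among the higher hydrogel libraries. Summed per kilobase, Ppard and Pparg came to 18.7 ± 2.26 CPM in liquid and 29.7 ± 1.65 CPM in hydrogel (SD, n = 4 each).

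Of 17 tested PPAR targets, 6 rose and 3 fell, with a median log2 change of 0.04. Fewer were called under most omissions of 1 library: 5 without liquid 1, liquid 3, hydrogel 3 or hydrogel 4. There were 6 without liquid 4 and 4 without hydrogel 2. Without liquid 2 there were 10, and without hydrogel 1 there were 9, as with all libraries. Fabp4, a fatty acid carrier, and Plin2, which coats lipid droplets, rose 10.4-fold and 3.02-fold, and Cpt1a, which admits fatty acids to mitochondria, rose from 55.8 ± 5.81 to 78.2 ± 6.73 CPM. Acadm, of mitochondrial beta oxidation, fell from 145 ± 17.7 to 106 ± 7.62 CPM (edgeR adjusted p of these 4 from 0.000201 to 0.00661). The targets therefore did not move one way.

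Among the steroid receptors, Nr3c1 rose and Pgr and Esr1 fell. Nr3c1, the glucocorticoid receptor, stood at 43.3, 41.9, 38.2 and 45.7 CPM in liquid and 49.9, 56.1, 56.7 and 53.2 CPM in hydrogel. All hydrogel libraries lay above all liquid ones, and the rise was 1.28-fold (log2 change 0.35 ± 0.08 SE, adjusted p = 0.00675). Pgr, the progesterone receptor, stood at 18.01, 17.5, 15.5 and 21.0 CPM in liquid and 11.7, 9.34, 13.8 and 11.4 CPM in hydrogel. It fell 1.56-fold (log2 change −0.64 ± 0.14 SE, adjusted p = 0.00653) with no overlap. Esr1, estrogen receptor alpha, stood at 10.3, 11.3, 11.1 and 10.4 CPM in liquid and 8.38, 8.19, 8.87 and 7.73 CPM in hydrogel. Its fall was 1.30-fold (log2 change −0.38 ± 0.10 SE, adjusted p = 0.0163), and the call was lost without hydrogel 2 (0.0537), without hydrogel 4 (0.0532) and with library totals as the scaling (0.0581).

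Other receptors of this branch were even or sparse. Esrra, the estrogen-related receptor that drives mitochondrial genes, had 22.0 to 28.9 CPM in liquid and 23.9 to 28.0 CPM in hydrogel (log2 change 0.09 ± 0.10 SE). Vdr, the vitamin D receptor, stood at 1.09, 1.97, 0.440 and 0.714 CPM in liquid and 0.740, 0.812, 1.02 and 0.485 CPM in hydrogel; it had the highest CV of the expressed members among liquid libraries (63.3%) and was not called (adjusted p = 0.496). Nr3c2, the mineralocorticoid receptor, had 29 reads over the liquid and 16 over the hydrogel libraries, and Esr2, estrogen receptor beta, 18 and 5.

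The list of glucocorticoid receptor targets had 15 tested genes, of which 5 rose and 2 fell, with a median log2 change of 0.46. Without hydrogel 1, and likewise without hydrogel 1 and liquid 2, 8 rose and 2 fell. The genes that passed with the smallest adjusted p were the metallothionein Mt1 (1.84-fold higher), the kinase Sgk1 (5.56-fold), the cell cycle inhibitor Cdkn1c (16.2-fold, to 69.3 ± 36.4 CPM) and the annexin Anxa1 (2.19-fold; edgeR adjusted p of 0.000200 to 0.00112). Fkbp5, Klf9 and Tsc22d3, often used to read this receptor, had log2 changes of −0.02, 0.02 and −0.44, and of these 3 only Tsc22d3 passed, downward (adjusted p = 0.00659). They were singled out after their values were seen.

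Thyroid hormone receptor transcripts were mostly Thra, at 89.2% ± 2.31 of the pair per kilobase in liquid and 93.3% ± 2.05 in hydrogel (SD, n = 4 each). Thrb stood at 5.14, 4.90, 7.42 and 7.38 CPM in liquid and 3.15, 2.59, 4.23 and 2.56 CPM in hydrogel, a 1.99-fold fall without overlap (log2 change −0.99 ± 0.22 SE, adjusted p = 0.00805, edgeR). Thra stood at 33.4, 31.03, 29.9 and 33.4 CPM in liquid and 29.8, 27.7, 24.6 and 28.7 CPM in hydrogel. Its ranges did not overlap either, but the log2 change of −0.20 ± 0.08 SE did not pass (adjusted p = 0.0857). Thra shares 263 exon bases with Nr1d1 on the opposite strand, a gene at 5.16 ± 0.813 CPM in liquid and 2.88 ± 0.576 CPM in hydrogel.

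Enzymes that make or clear receptor ligands formed a list of 15, of which 7 could be tested, 2 rose and 1 fell. Dio2, which turns the thyroid prohormone into its active form, rose from 5.67 ± 3.40 to 46.9 ± 22.1 CPM, and Cyp27a1, which makes an oxysterol, from 1.68 ± 0.234 to 4.27 ± 1.12 CPM (edgeR adjusted p = 0.00132 and 0.00219). Srd5a3, of the steroid reductase family, fell 1.17-fold with overlapping ranges (adjusted p = 0.0485), a call lost without liquid 1, liquid 4, hydrogel 1 or hydrogel 2, with DESeq2 size factors, library totals, the replicate block and no low-count filter. Hsd11b1, which renews active glucocorticoid and is named here with its value already seen, had a log2 change of 0.15 (adjusted p = 0.610).

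Of the NR4A receptors, which work without a known natural ligand and are switched on as immediate early genes, Nr4a3 fell. It stood at 1.28, 1.25, 1.12 and 1.43 CPM in liquid and 0.274, 0.625, 0.547 and 0.259 CPM in hydrogel, 183 and 53 reads in all, a 2.99-fold fall without overlap (log2 change −1.58 ± 0.33 SE, adjusted p = 0.00590). Nr4a1 stood at 10.6, 9.96, 9.79 and 8.99 CPM in liquid and 9.97, 13.7, 12.01 and 13.6 CPM in hydrogel, with hydrogel 1 inside the liquid range. Its log2 change of 0.32 ± 0.12 SE did not pass (adjusted p = 0.0723), but did without hydrogel 1 (0.42, adjusted p = 0.0202) and without hydrogel 1 and liquid 2 (0.44, 0.0116). Nr4a2 stood at 4.69, 4.08, 6.78 and 5.84 CPM in liquid and 4.49, 3.66, 4.01 and 4.24 CPM in hydrogel. It did not pass (log2 change −0.39 ± 0.18 SE, adjusted p = 0.134), but did without liquid 2 (−0.50, 0.0420) and without both libraries (−0.53, 0.0351). Of 13 tested immediate early genes, 3 rose and 4 fell, and 2 fell without liquid 4, hydrogel 2 or hydrogel 3. Atf3 (4.32-fold) and Junb (1.46-fold) were among the higher ones, and Npas4 (8.46-fold) and Btg2 (1.66-fold) among the lower ones (edgeR adjusted p of these 4 from 0.000238 to 0.00215).

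Among the remaining orphan receptors, Nr2f6, a COUP-TF relative known for restraining lymphocyte cytokines, fell. It stood at 22.7, 23.4, 24.3 and 22.9 CPM in liquid and 17.8, 17.1, 17.6 and 19.96 CPM in hydrogel. The fall was 1.29-fold and larger than the spread of either group (log2 change −0.37 ± 0.08 SE, adjusted p = 0.00701), but 1622 of its 2983 exon bases are shared with Ocel1 on the opposite strand, at 13.1 ± 1.39 CPM in liquid and 10.7 ± 1.34 CPM in hydrogel. The testicular receptors Nr2c1 and Nr2c2, which repress through direct repeats, stood at 10.5 to 11.3 and 53.3 to 64.2 CPM in liquid and 11.5 to 13.2 and 49.0 to 59.8 CPM in hydrogel. Their log2 changes of 0.15 ± 0.09 and −0.14 ± 0.08 SE did not pass, although the Nr2c1 ranges did not overlap. Nr2c2 shares 4590 of its 14935 exon bases with Mrps25 on the opposite strand, at 34.1 ± 2.86 CPM in liquid and 32.6 ± 2.12 CPM in hydrogel.

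Nr6a1, the germ cell nuclear factor, was near the lower limit of expression at 0.706, 1.58, 0.880 and 0.899 CPM in liquid and 0.794, 1.81, 1.86 and 1.68 CPM in hydrogel. It was not called with all libraries (log2 change 0.60 ± 0.34 SE, adjusted p = 0.223), but was without hydrogel 1 and liquid 2 (1.11, 0.00720). For Nr6a1 too these were the libraries nearest to the other culture, so the choice favoured the gain. The COUP-TF genes were almost silent, Nr2f1 with 4 reads over the liquid and 2 over the hydrogel libraries, and Nr2f2 with 15 and 1. The Nr2f2 read rate was 13.1 times higher in liquid, with a 95% exact interval of 2.02 to 553 for counting error. Rorb had 3 reads in liquid and 12 in hydrogel.

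The other 18 nuclear receptor genes of the mouse, outside the list of members, had 13 rows in the table and 3 with enough reads to test, all of the clock branch. Nr1d1, which encodes REV-ERB alpha, fell from 5.16 ± 0.813 to 2.88 ± 0.576 CPM, and Rora from 21.2 ± 5.99 to 10.7 ± 2.89 CPM. Nr1d2, which encodes REV-ERB beta, rose from 3.71 ± 0.649 to 6.15 ± 1.42 CPM (each ± SD of 4 libraries). Their adjusted p in edgeR were 0.00966, 0.0118 and 0.0262 in that order. The call of Nr1d2 was lost without liquid 1, 3 or 4 and without hydrogel 2, 3 or 4, and the ranges of Rora and Nr1d2 overlapped.

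Coregulators, which the receptors recruit, were more even than the receptors. Of 12 tested coactivators, 2 rose and 0 fell in edgeR's test (1 with an unadjusted p under 0.05 downward, and 0 in DESeq2 and limma-voom), but neither the count nor its direction was steady. Upper-quartile scaling called 0 higher and 1 lower, no low-count filter gave 1 of each, and leaving out liquid 1 gave 1 higher and 2 lower. The 2 that rose were the arginine methyltransferase Carm1 (71.0 ± 1.75 to 82.1 ± 4.58 CPM) and the PGC-1 relative Pprc1 (42.7 ± 7.05 to 54.8 ± 3.79 CPM), and 0 coactivators were called without liquid 4, hydrogel 1 or hydrogel 2 and 1 without liquid 3 or hydrogel 3. Of the corepressors, Nrip1, which encodes RIP140, a corepressor of liganded receptors, fell from 104 ± 11.02 to 78.7 ± 6.00 CPM (SD, n = 4 each), with an adjusted p of 0.00734 in edgeR. Ncor1, chosen after its value was seen, had a log2 change of −0.10 and was not called (adjusted p = 0.477).

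**Figure D4:**
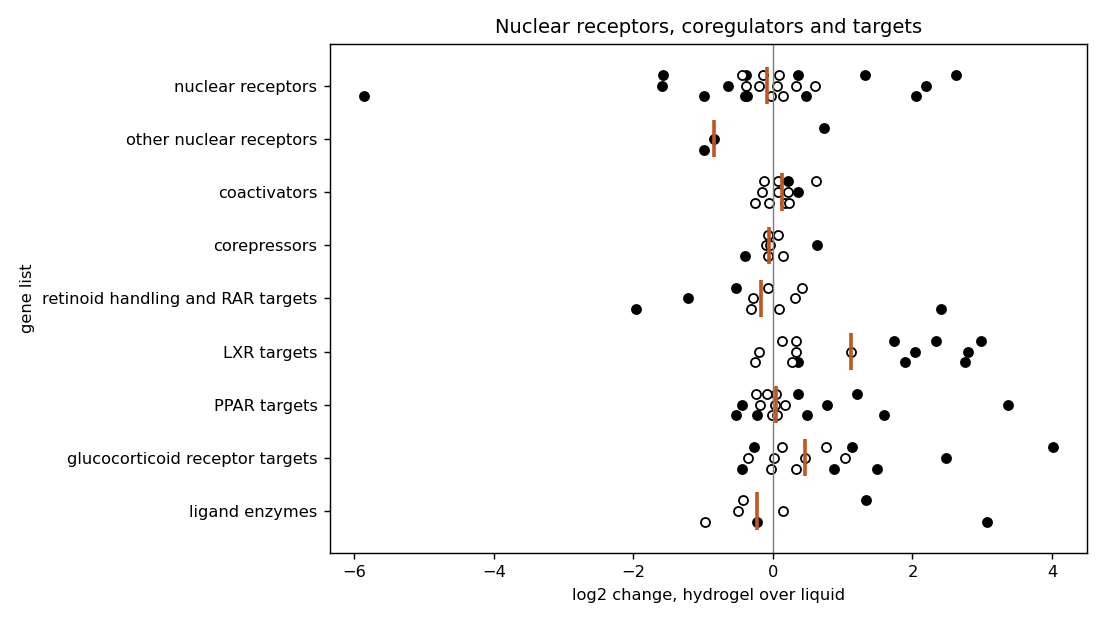
Log2 change from liquid to hydrogel (horizontal axis) of each tested gene in the nuclear receptor, coregulator, target and ligand enzyme lists, filled where edgeR's adjusted p was under 0.05 and open otherwise, with the list's median as a bar. The LXR targets lie mostly to the right with a median of 1.12, while coactivators and corepressors lie close to 0.

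The called members differed in how they ran across the libraries. Of the 6 that rose, hydrogel 1 was the hydrogel library nearest to liquid in 5, the exception being Ppard, and liquid 2 was the liquid library nearest to hydrogel in 3, Rxra, Rara and Nr1h3. The summed macrophage markers were likewise highest in liquid 2 among liquid and lowest in hydrogel 1 among hydrogel libraries. The summed dendritic cell, mast cell and basophil, neutrophil and lymphocyte markers shared this order, so it was not particular to macrophage markers. The megakaryocyte and erythroid sums were instead lowest in liquid 2 and highest in hydrogel 1. Of the 8 that fell, hydrogel 1 was nearest to liquid in 3 and liquid 2 nearest to hydrogel in 4. Among expressed members the spread between libraries of a culture had a median CV of 12.9% in liquid and 8.66% in hydrogel. Without hydrogel 1 and liquid 2, 8 members rose and 9 fell. Leaving out libraries near the other culture favours such a gain, and calls over all genes went from 4052 to 5633.

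**Figure D5:**
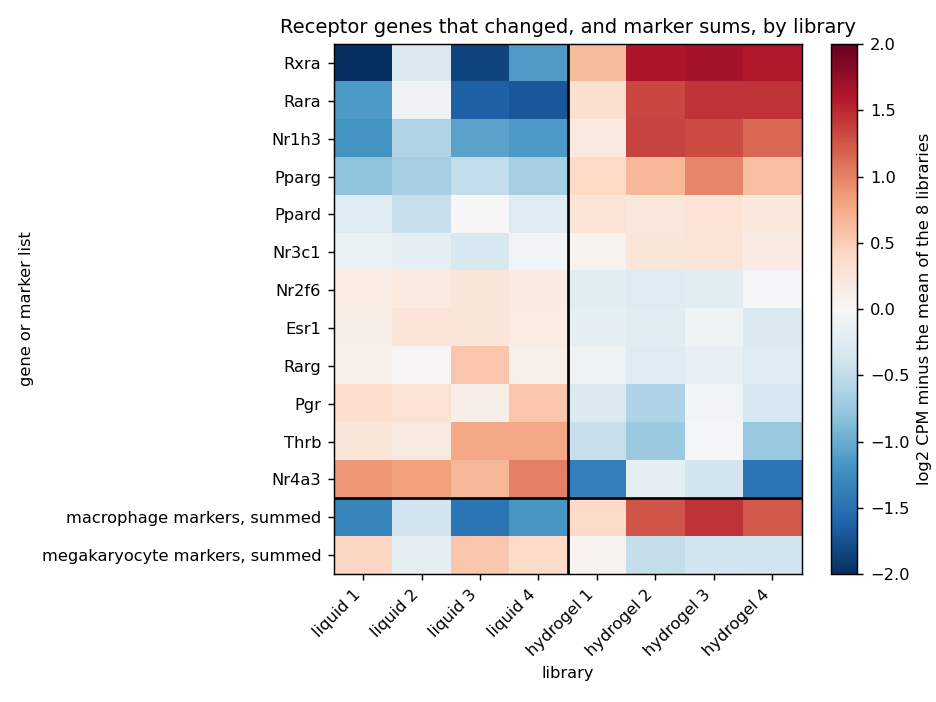
Log2 CPM minus the mean of the 8 libraries (colour, from −2 to 2) for the called nuclear receptor genes other than Rxrg and Rarb, which have few reads, and for the summed macrophage and megakaryocyte markers, in each library. Liquid 2 and hydrogel 1 are paler than the other libraries of their culture for Rxra, Rara, Nr1h3 and the macrophage markers. Ppard, Nr3c1, Nr2f6 and Esr1 show small differences on this scale.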

How the data were processed

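Gene counts were deposited by the authors as whole numbers per gene and library, with no normalization. The submitters' processing notes name GRCm39, STAR 2.7.10b, HTSeq 0.13.5 and bcl2fastq. The annotation release and the strand setting were not given in the sources used here, although the library kit keeps strand per the labels' protocols. Sample titles gave the groups and numbers. Left out were 2 stray text lines without a gene. Symbols and exon lengths came from GENCODE M21 (GRCm38), and 26534 of 27679 identifiers had a symbol. Exon lengths merge all annotated exons, so levels per kilobase are approximate.

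The filter filterByExpr kept 13845 genes. Under R 4.3.3, edgeR 4.0.16 compared the cultures by its quasi-likelihood test on TMM-scaled libraries, with no other covariate, and p-values were adjusted over all genes by Benjamini-Hochberg (threshold 0.05). The standard error is the log2 change divided by the square root of F. DESeq2 1.42.0 and limma 3.58.1 served as alternatives. The scripts were tested on simulated data. There 15.9% of the calls by DESeq2 were false, against 4.14% of those by edgeR. Of the smallest changes put in, edgeR recovered 38.8%. The simulation changed only a small part of the genes, and edgeR made 145 calls there against 4052 in the data. These shares therefore describe the simulation and are not error or recovery rates of the data. Intervals and floors (3 counts) cover counting error only. The p-values set the difference between the 2 culture types against the spread among libraries of the same type.

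All members are named; of each other list, up to 4 passing genes with the smallest adjusted p, or all if 5 or fewer passed, except that some are not reported here. Members, lists and tests were chosen with earlier results of these data known. Tables and figures used Python 3.11.15, pandas 2.3.3, numpy 2.4.6, scipy 1.17.1 and matplotlib 3.10.9.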

Additional observations from a re-analysis of the deposited data

Results flagged for a closer look

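In 6 of the 48 sets of 4 libraries (24 tested members in 2 cultures) a library stood far from the other 3 by Dixon's test at 95%, which chance gives for about 1 set in 20. Hydrogel 1 was the library in 4 of them. Rara stood at 7.12 CPM in hydrogel 1 against 14.4 to 15.6 CPM in the other hydrogel libraries, Rxra at 15.4 against 30.3 to 31.4 CPM, and Nr6a1 at 0.794 against 1.68 to 1.86 CPM. Rxrg was at 0.110 CPM in hydrogel 1 and 0 in the others, where any value above 0 passes this test, so that it says nothing about its size. Liquid 3 was the highest liquid library for Rarg, at 153 CPM against 107 to 113 CPM, and for Nr1h2, at 83.4 against 72.0 to 73.6 CPM. Liquid 3 was also the most deeply sequenced library, with 49281611 counts.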

How the results depend on the processing

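Of the 14 called members, 11 kept their direction and their call under all 17 alternatives that could test them: 3 other scalings, 2 other filters, DESeq2, limma-voom, the replicate block, each of the 8 libraries left out, and hydrogel 1 and liquid 2 left out together. The exceptions were Rarg, Esr1 and Rarb, given above; Rarb also lost its call with no low-count filter (adjusted p = 0.0527), and was not tested with at least 1 CPM in 4 libraries. Members called higher numbered 6 to 7 and members called lower 5 (without hydrogel 2 or hydrogel 4) to 9 when 1 library was left out, with 24 tested each time. With no low-count filter 29 members were tested, and with at least 1 CPM in 4 libraries 22. Directions of 3 members that were not called turned: the log2 change of Nr1h2 was 0.039 with library totals and ran from −0.050 to 0.025 (without liquid 3) when 1 library was left out, that of Rxrb from −0.041 (without liquid 4) to 0.16, and that of Vdr from −0.71 to 0.047 (without liquid 2), with 0.079 without hydrogel 1 and liquid 2. The cause was not tested. Called coactivators numbered 1 (lower) with upper-quartile scaling, 5 without hydrogel 1 and liquid 2, and 0 to 3 when 1 library was left out, where 3 to 7 had an unadjusted p under 0.05. Called PPAR targets numbered 4 (without hydrogel 2) to 10. All called genes numbered 2700 (without hydrogel 2) to 4975 when 1 library was left out, and 5633 without hydrogel 1 and liquid 2. TMM called 2096 genes higher and 1956 lower, upper-quartile scaling 1755 and 2492, and library totals 2280 and 1513. With the replicate number as a block, 6 members were higher, 8 lower and 4238 genes were called; libraries of the same number correlated in their deviations by −0.13 to 0.33, so the number was not taken as a pairing. The depth did not allow a test of the 5 sparse members.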
